A study of Sus scrofa with 12 samples.

Results

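Transcripts of 10 genes of the miRNA pathway were followed in porcine adipose tissue-derived mesenchymal stem cells (MSCs) and in the extracellular vesicles (EVs) that these cells released. The genes were DROSHA, DGCR8, XPO5, DICER1, AGO1, AGO2, AGO3, AGO4, TNRC6A and TNRC6B. They were taken from the table of mRNA reads by symbol, by the older EIF2C symbol of the Argonautes or by the pig Ensembl identifier of the symbol, and the most-read entry stood for a gene that had more than 1. Of the 29658 entries of that table, 9 of the 10 genes had an entry, 7 had at least 1 read and 5 had enough reads to be tested between EVs and MSCs.

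A miRNA begins as a hairpin within a longer primary transcript. The nuclear microprocessor, made of the RNase III enzyme DROSHA and its RNA-binding partner DGCR8, crops the hairpin out, exportin-5 (XPO5) carries it to the cytoplasm, and DICER1 removes its loop. The resulting duplex is loaded into an Argonaute protein, which keeps 1 strand and, through the GW182 scaffold proteins of the TNRC6 family, brings deadenylases and decapping enzymes to the matched mRNA. AGO2 is the mammalian Argonaute best known for cutting its target directly.

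The comparison asked whether these transcripts were carried in EVs at other levels than in the parent cells. MSCs came from abdominal fat of 3 female domestic pigs aged 3 months, were grown with platelet lysate and were used at passage 3. EVs were collected by ultracentrifugation from the supernatants of the same pigs' MSCs, so that each pig gave 1 MSC and 1 EV library of each kind (n = 3 per group). Replicate numbers 1 to 3 are the pigs, and libraries are paired only within an assay, since the titles number the pigs differently in the mRNA and small-RNA libraries. The labels give no treatment or genetic change for either group, and both were cultures from single animals. The spread between libraries therefore holds that between pigs together with that of culture, EV collection and library preparation, which cannot be told apart.

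The mRNA libraries held 11332330 to 12276855 reads on gene entries in MSCs and 10429085 to 12151384 in EVs, so 3 reads corresponded to 0.244 to 0.288 counts per 1000000 (CPM). The small-RNA libraries were far less even, with 9455606.52 to 15395870.83 miRNA counts in MSCs and 18374.45 to 656887.83 in EVs. MSC replicate 2 stood apart: it had the lowest level of the 6 mRNA libraries in 33.6% of the 12392 entries tested and the highest in 29.2%. Fold changes also followed transcript length, with a median log2 change (EV minus MSC) of -0.13 in the shortest length class (2604 entries of at most 1 kb) and 0.20 in the longest (2240 entries of over 4 kb). The summed levels of the MSC surface markers were 439 to 1080 CPM in MSCs and 500 to 613 in EVs. The entry named THY1 (CD90) had 0 reads in every library, which is not read here as absence of the transcript. The 3 EV membrane markers summed to 905 to 1880 CPM in MSCs and 846 to 985 in EVs. Of these, CD63 had a log2 change of -0.53 (adjusted p = 0.435, edgeR). CD9 and ITGB1 had too few reads to be tested (36 and 10 over the 6 libraries). The summed levels were 9.67 to 16.7 against 1.64 to 6.59 for 3 endothelial markers, 48.7 to 51.1 against 45.2 to 63.7 for 5 leukocyte and myeloid markers, 68.2 to 141 against 17.9 to 95.9 for 5 muscle and pericyte markers, 1.87 to 3.16 against 0.76 to 2.83 for 3 platelet markers, and at most 0.469 in any library for 3 adipocyte markers. The muscle and pericyte sum was mostly CSPG4, and its ACTA2 (smooth muscle actin) was lower in EVs: 30.6 ± 5.18 CPM in MSCs against 1.81 ± 1.88 (SD, n = 3), a log2 change of -4.10 (adjusted p = 0.206, and 0.0116 with a block for the pig, edgeR). The endothelial marker PECAM1 was at 12.3 ± 3.79 against 3.76 ± 2.57 CPM, with a log2 change of -1.71 (adjusted p = 0.249, edgeR). The part of these markers in the differences given here was not tested. The entries for THY1, VWF, DES, RGS5, PPBP and ITGA2B, all named by symbol, had 0 reads. Most symbol entries lying within an Ensembl entry also had 0 reads, as given below. Whether that holds for these marker entries was not tested, so the sums may be too low. The paper describes these MSCs as expressing CD90.

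The annotation set what could be measured for 6 of the 10 genes. The table listed many loci under both a symbol and an Ensembl identifier, and of the 2704 symbol entries lying within an Ensembl entry on the same strand, 2607 (96.4%) had 0 reads, against 503 of 1632 (30.8%) of the other symbol entries. Positions are on the pig build susScr3, as given in the table. The DICER1 entry (chromosome 7, 123581728 to 123624405, minus strand, 5987 bases of exon) held 1821 reads over the 6 libraries, and the entry ENSSSCG00000028225 inside it, of 4698 bases, held 0. The DGCR8 locus (chromosome 14, 55110363 to 55126603, plus strand) had 25 reads on ENSSSCG00000010135, and 0 on the entry named DGCR8, which was shorter by only 214 bases. The counts of these genes therefore cannot be taken as reads over the whole transcript.

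The Argonaute cluster on chromosome 6 showed the same layout. The entry for AGO4 (EIF2C4, 85255835 to 85296920, plus strand) had 0 reads in all 6 libraries and lay inside an entry without a symbol, ENSSSCG00000003629 (85255420 to 85300753), which had 1881. The entry for AGO1 (EIF2C1, 85325867 to 85359514, plus strand) also had 0 reads in all 6 libraries and lay inside ENSSSCG00000003630 (85325555 to 85359514), which had 51. The name table gave ENSSSCG00000003630 the symbol AGO3, although the entry EIF2C3 lay further along on the minus strand (85371245 to 85460817) and had 39 reads of its own. ENSSSCG00000003630 is thus the AGO3 entry by name and covers AGO1 by position, and it is given here under its identifier. AGO2 (EIF2C2, chromosome 4, 2362700 to 2432727, minus strand) had 212 reads and shared its span with an entry on the other strand that had 4. No row was found for TNRC6A, which is not analysed here.

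**Figure D1:**
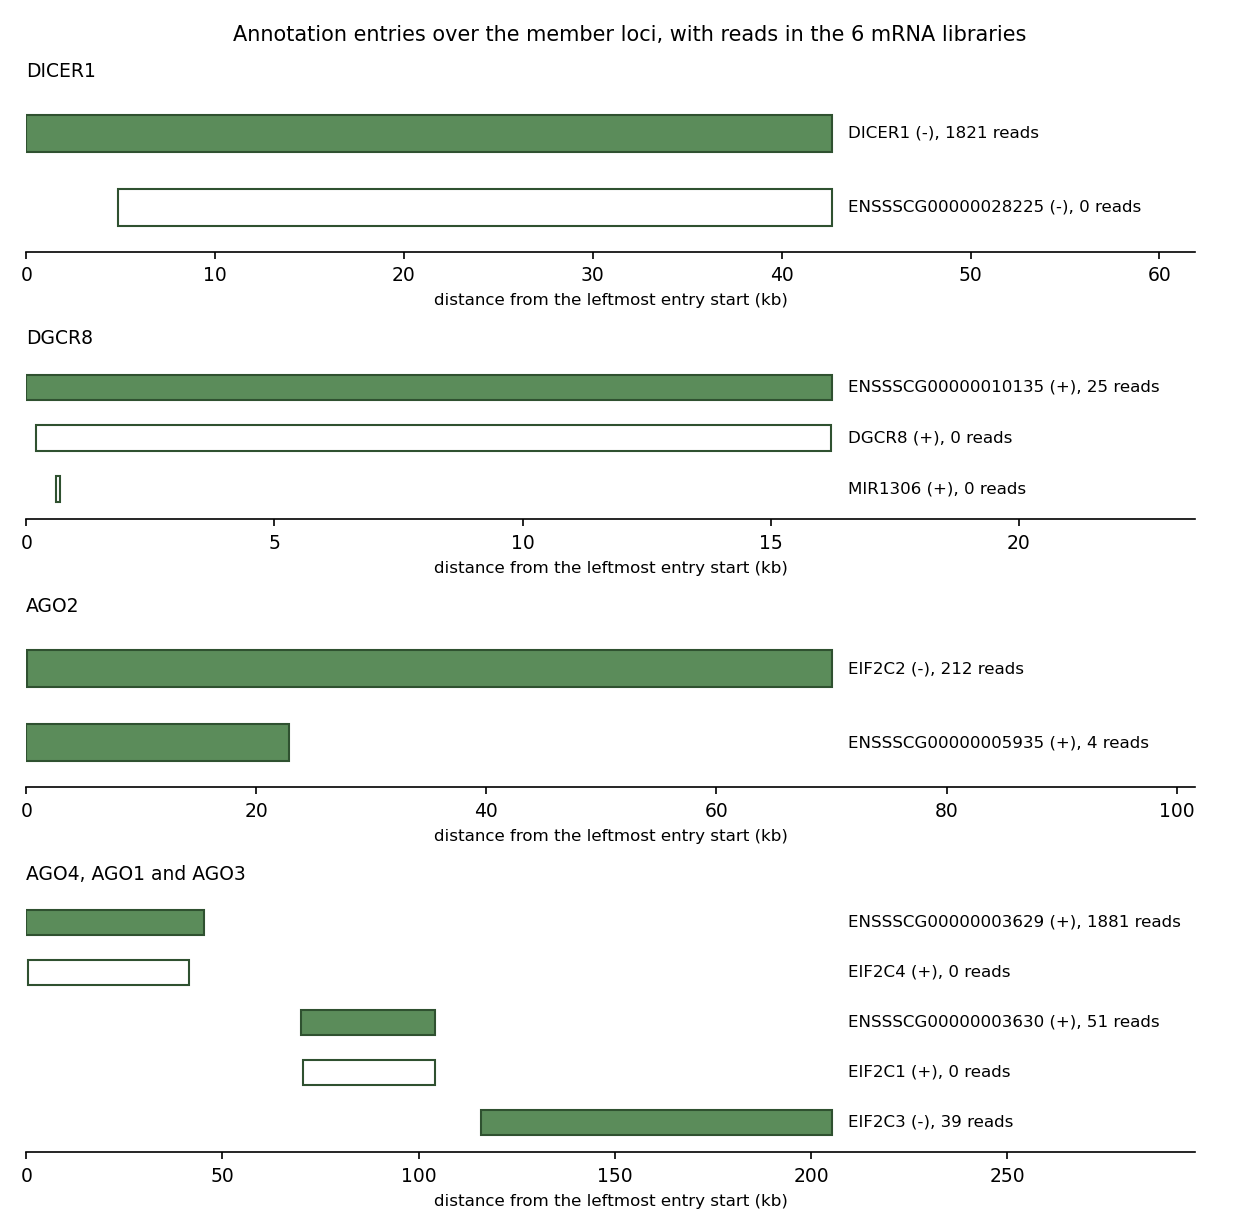
Span of each annotation entry over DICER1, DGCR8, AGO2 and the AGO4, AGO1 and AGO3 cluster, as distance in kb from the leftmost start, with strand and the reads summed over the 6 mRNA libraries; filled bars had reads and open bars had 0. The symbol entries EIF2C4 and EIF2C1 and the entry named DGCR8 were at 0 inside a slightly longer or much longer entry that held the reads.

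None of the 5 tested genes was called different between EVs and MSCs. With the fold and p limits of the study (over 2-fold, unadjusted p under 0.05) applied to edgeR's quasi-likelihood F test in place of the test the study used, 5.55% of the entries tested were higher and 3.57% lower in EVs, and 0 of the 5 genes were called in either direction, with 0 at an unadjusted p under 0.05 whatever the fold. After Benjamini-Hochberg adjustment the called share was 0% of all entries in either direction, and with a block for the pig it was 0.492% higher and 0.605% lower, with 0 of the 5 genes among them. DESeq2 with adjustment also called 0 of the 5. Across the table, entries with every EV library above every MSC library made up 14.3% and those with every EV library below 13.6%, and the groups overlapped for all 5 genes. The median log2 change was 0.10 over the 5 genes and -0.02 over all entries tested. In bulk RNA from vesicles, fewer vesicles that carry a transcript and fewer copies per vesicle cannot be told apart.

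DROSHA (ENSSSCG00000016809, chromosome 16, 18544603 to 18667159, minus strand), the nuclear enzyme that crops primary transcripts, had no other entry over it. Its reads numbered 586, 263 and 443 in MSC replicates 1 to 3 and 512, 519 and 321 in EV replicates 1 to 3. MSC replicate 2 was the lowest library and MSC replicate 1 the highest, so the MSC range enclosed the EV range. After scaling of library sizes by trimmed means (TMM) the levels were 36.0 ± 10.2 CPM in MSCs and 38.7 ± 5.60 in EVs (SD, n = 3). This gave a log2 change of 0.10 (SE 0.28, 95% interval -0.56 to 0.76, adjusted p = 0.86, edgeR). Its sign was not stable: it was -0.10 without MSC replicate 2 and -0.06 with the length trend removed.

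DGCR8, the RNA-binding partner of DROSHA, was at the detection limit. It had 3, 0 and 3 reads in the MSC libraries and 10, 6 and 3 in the EV libraries. After scaling, the EV libraries (0.303 to 0.844 CPM) all lay above the MSC libraries (0 to 0.254 CPM), but with at most 10 reads in a library the gene fell below the filter and was not tested. Reads on bases shared with the second DGCR8 entry may be missing from these counts, so a low level of DGCR8 mRNA itself cannot be read from them.

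XPO5 (ENSSSCG00000001679, chromosome 7, 44112974 to 44151883, minus strand), the carrier of precursor hairpins out of the nucleus, had the most reads of the genes. MSCs held 749, 759 and 697 of its reads, and EVs 627, 749 and 675. The counts spanned a narrow range in both groups, which overlapped. The scaled levels were 63.3 ± 8.15 CPM in MSCs and 59.9 ± 7.77 in EVs (SD, n = 3). The log2 change was -0.08 (SE 0.22, 95% interval -0.59 to 0.44, adjusted p = 0.865, edgeR), so the data were compatible with between 0.663 and 1.35 times the MSC level.

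DICER1, the cytoplasmic enzyme that cuts precursors to the mature duplex, was covered by 310, 183 and 296 reads in the MSC libraries and by 377, 429 and 226 in the EV libraries. EV replicates 1 and 2 lay above every MSC library, whereas EV replicate 3 lay below MSC replicates 1 and 3. The scaled levels were 22.2 ± 4.10 CPM in MSCs and 29.4 ± 5.72 in EVs (SD, n = 3). The log2 change was 0.40 (SE 0.27, 95% interval -0.23 to 1.04, adjusted p = 0.455, edgeR). Within pigs it was 0.41, 0.94 and -0.14 for pigs 1 to 3, so 1 of the 3 pairs went the other way. With the length trend removed it was 0.14, and without MSC replicate 2 it was 0.26.

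AGO2, the slicing Argonaute, had few reads: 27, 32 and 21 in MSCs and 22, 50 and 60 in EVs. EV replicates 2 and 3 were above every MSC library, and EV replicate 1 was within the MSC range. The scaled levels were 2.31 ± 0.669 CPM in MSCs and 3.94 ± 2.11 in EVs (SD, n = 3). The log2 change was 0.77 (SE 0.52, 95% interval -0.43 to 1.97, adjusted p = 0.453, edgeR), the widest interval of the 5 genes. It ranged from 0.32 without EV replicate 3 to 1.11 without EV replicate 1.

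The other Argonaute entries had either very few reads or no symbol. ENSSSCG00000003630 had 4, 8 and 9 MSC reads against 12, 10 and 8 EV reads, and EIF2C3 had 7, 3 and 3 against 5, 12 and 9. Neither was tested. After scaling, ENSSSCG00000003630 was at 0.31, 0.766 and 0.763 CPM in MSCs and at 1.01, 0.781 and 0.809 in EVs. All EV libraries thus lay above the MSC libraries, EV replicates 2 and 3 narrowly, whereas the groups overlapped for EIF2C3. That separation depended on the scaling: on the authors' RPKM, EV replicate 3 (0.0665) was below MSC replicate 3 (0.0718). ENSSSCG00000003629, which lies over EIF2C4 and is not one of the 10 genes by name, had 262, 259 and 228 MSC reads against 334, 522 and 276 EV reads. Each of its EV counts was above each of its MSC counts. The scaled levels were 21.5 ± 2.91 and 32.3 ± 7.34 CPM (SD, n = 3), with a log2 change of 0.59 (SE 0.27, 95% interval -0.03 to 1.21, unadjusted p = 0.0585, adjusted p = 0.321, edgeR). With the length trend removed the change was 0.28. Its exons sum to 6834 bases, against 2586 for EIF2C4.

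TNRC6B (ENSSSCG00000000078, chromosome 5, 5297078 to 5431373, minus strand), the GW182 scaffold that links Argonautes to the deadenylases, was read 208, 170 and 149 times in the MSC libraries and 166, 254 and 141 times in the EV libraries. After scaling, EV replicate 2 was the highest library (19.8 CPM) and MSC replicate 3 the lowest (12.6 CPM), and the groups overlapped. The scaled levels were 15.0 ± 2.05 and 16 ± 3.29 CPM (SD, n = 3), with a log2 change of 0.10 (SE 0.28, 95% interval -0.56 to 0.75, adjusted p = 0.87, edgeR).

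**Figure D2:**
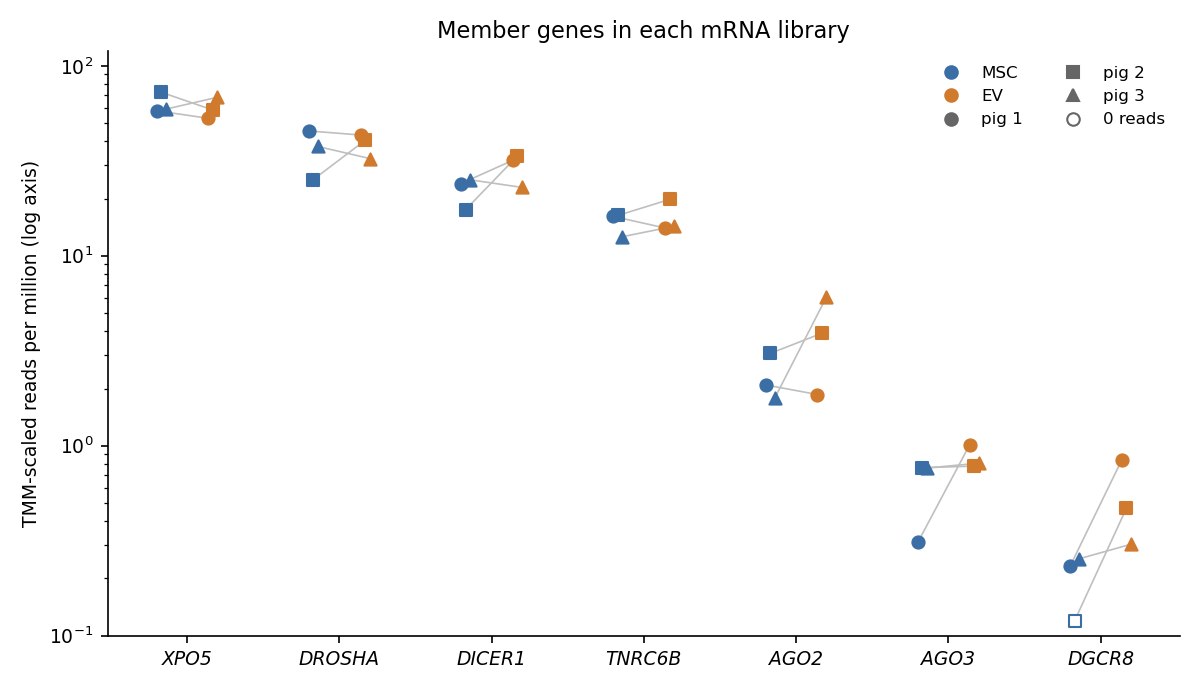
TMM-scaled CPM (log axis) of the 7 genes with reads in each mRNA library; blue points are MSCs, orange points EVs, the marker shape gives the pig and grey lines join the libraries of 1 pig. The open symbol is a library with 0 reads, drawn at the foot of the axis, and AGO3 is the entry ENSSSCG00000003630. XPO5, DROSHA, DICER1, TNRC6B and AGO2 overlap between the groups. AGO3 and DGCR8, with at most 12 reads in any library, do not on this scale, but AGO3 overlaps in unscaled reads and on RPKM, and DGCR8 ties in unscaled reads.

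**Figure D3:**
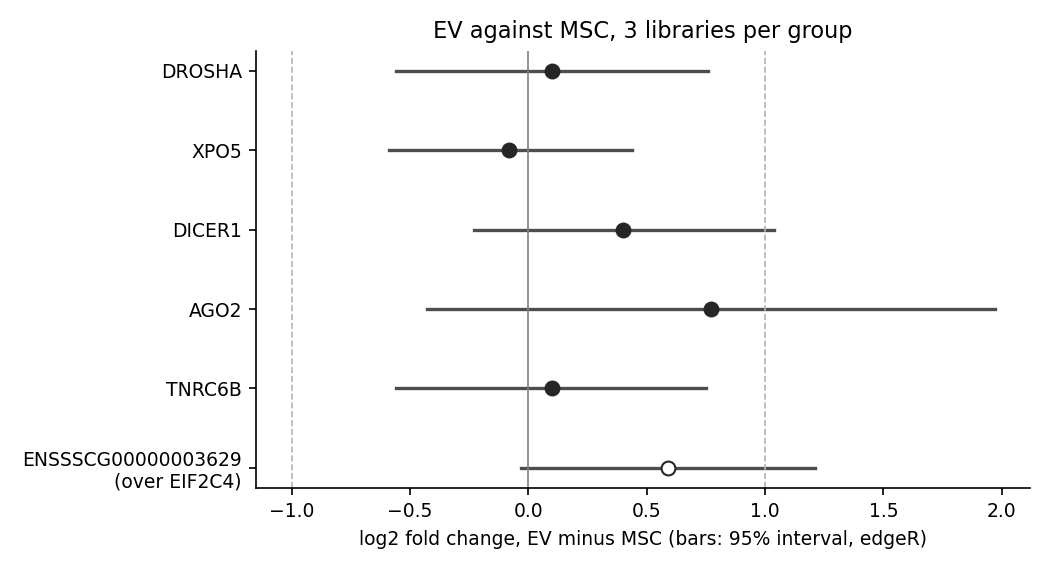
Log2 fold change, EV minus MSC, of the 5 tested genes (filled) and of the unnamed entry over EIF2C4 (open), with 95% intervals from edgeR (n = 3 per group); dashed lines mark a 2-fold change. Each interval spans 0, and those of DROSHA, XPO5 and TNRC6B lie within the 2-fold lines.

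The genes were ordered in the same way in cells and vesicles when read counts were divided by length. On the authors' RPKM scale (reads per kilobase of exon, scaled for library size), XPO5 led with 3.67 ± 0.156 in MSCs and 3.53 ± 0.183 in EVs (SD, n = 3). DROSHA followed with 2.15 ± 0.792 and 2.33 ± 0.564, and TNRC6B with 1.65 ± 0.264 and 1.80 ± 0.501. XPO5 was above DROSHA by more than the larger SD in both groups, whereas DROSHA and TNRC6B differed by less than it in both. DICER1 came next with 1.00 ± 0.261 and 1.35 ± 0.391, a step from TNRC6B that exceeded the larger SD in MSCs and not in EVs. AGO2 had 0.283 ± 0.0586 and 0.480 ± 0.213, below DICER1 in all libraries. ENSSSCG00000003630 (0.0556 ± 0.0214 and 0.0821 ± 0.0177) and DGCR8 (0.0104 ± 0.009 and 0.0343 ± 0.0198) were last.

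Only the positions of DROSHA, XPO5 and TNRC6B in that order are free of a second entry for the same gene. If the DICER1 reads had come solely from the 1289 bases by which its entry exceeded the one inside it, its RPKM would have been 4.66 ± 1.21 in MSCs and 6.29 ± 1.82 in EVs, above XPO5. The same calculation over 214 bases placed DGCR8 at 0.213 ± 0.185 and 0.703 ± 0.406. Both means were below those of DROSHA, but the EV mean was above that of AGO2 (0.480). Over 312 bases it placed ENSSSCG00000003630 at 0.514 ± 0.198 and 0.76 ± 0.164, above the AGO2 means in both groups (0.283 and 0.480). XPO5 itself overlapped the end of the POLR1C entry on the other strand. The rank of DICER1 against XPO5, DROSHA and TNRC6B was therefore not determined by these counts. Nor was the order among AGO2, ENSSSCG00000003630 and DGCR8.

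Across the 6 mRNA libraries DROSHA and DICER1 varied together (Pearson r = 0.792 of log2 scaled CPM) and both varied against XPO5 (r = -0.925 and -0.844). These values describe 6 libraries in which MSC replicate 2 was lowest for DROSHA and DICER1 and highest for XPO5, and they carry no test. AGO2 was weakly related to DICER1 (r = -0.158) and to TNRC6B (r = 0.363). Among 7907 tested entries that carried a symbol, those most like DICER1 were TIPIN (r = 0.993), BBS10 (r = 0.988) and CD101 (r = 0.987), and 43 entries exceeded 0.95. Those most like AGO2 were DOP1B (r = 0.987), RADIL (r = 0.985) and ACVR1 (r = 0.985), and 16 entries exceeded 0.95. These were picked as the highest of 7907 over only 6 libraries and also carry no test.

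The balance among the Argonautes did not differ detectably. By the named entries, AGO2 made up 90.0%, 84.3% and 75.7% of Argonaute RPKM in MSCs and 71.0%, 87.0% and 90.9% in EVs. The means were 83.3 ± 7.19% and 83.0 ± 10.5% (SD, n = 3), a difference of -0.352 percentage points (two-sided exact permutation p = 1, where 3 against 3 libraries allow no p below 0.1). When the 4 genes were instead read by position, so that ENSSSCG00000003629 counted as AGO4, AGO2 made up 23.1 ± 2.84% and 24.8 ± 11.2%, and the entry over EIF2C4 made up 68.9 ± 1.85% and 66.6 ± 11.0%. Which Argonaute led thus depended on how the entries were assigned, and the EV-to-MSC difference was within the spread between libraries either way (exact permutation p = 0.9 for AGO2 by position, adjusted p = 1 over the 4 genes). Both sets of shares divided reads by whole entry lengths. By the extra bases alone, RPKM in MSCs would have been 1.34 ± 0.0944 for ENSSSCG00000003629 and 0.514 ± 0.198 for ENSSSCG00000003630, both above AGO2 (0.283 ± 0.0586).

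The wider pathway was followed through 71 further genes, of which 60 had an entry and 54 were tested. By the same fold and p limits 3 of the 54 (5.56%) were higher and 1 (1.85%) lower in EVs, against 5.55% and 3.57% over the table. After adjustment 0 were called in either direction, and 9 (16.7%) had an unadjusted p under 0.05, against 16% over the table (edgeR). The list as a whole was thus called at about the share of all entries. The median log2 change was 0.08, and 28 of the 54 were above 0. All EV libraries lay above all MSC libraries in 11 genes (20.4%) and below them in 5 (9.26%), against 14.3% and 13.6% over the table. MSC replicate 2 was the lowest of the 6 libraries for 24 of the 54 genes (44.4%) and the highest for 19 (35.2%), against 33.6% and 29.2% over the table. Of the other listed genes, 11 had no entry, 5 had 0 reads (LIN28A, FMR1, TSNAX, PIWIL1 and PIWIL2) and PIWIL4 had too few. The FMR1 entry belonged to 1120 entries on the sequence named X, all of which had 0 reads.

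The 3 genes called higher were all among the 20 tested genes of mRNA deadenylation and decapping, the end point of miRNA silencing, and the group itself was not tested. Beside these 3, against 5.55% over the table, 0 were lower and 17 did not pass. All EV libraries lay above all MSC libraries in 8 of the 20, against 14.3% over the table, and the median log2 change was 0.16, or 0.08 with the length trend removed. MSC replicate 2 was the lowest library for 11 of the 20, against 33.6% of all entries tested.

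XRN1 (ENSSSCG00000011678), the exonuclease that degrades decapped mRNA, had 29.8, 8.52 and 19.2 CPM in MSCs and 45.9, 59.3 and 59.5 in EVs. The EV libraries were all above the MSC libraries, with MSC replicate 2 the lowest. XRN1 had a log2 change of 1.52 (SE 0.43, unadjusted p = 0.00887, adjusted p = 0.237, edgeR), and 1.16 without MSC replicate 2. CNOT6L (ENSSSCG00000008989), a catalytic deadenylase of the CCR4-NOT complex, had 28.0, 13.0 and 23.1 CPM in MSCs and 31.6, 50.3 and 63.3 in EVs. Its EV replicate 1 was only slightly above MSC replicate 1, and the log2 change of 1.18 (SE 0.38, adjusted p = 0.249, edgeR) fell below 2-fold without MSC replicate 2 (0.92) or without EV replicate 3 (0.94).

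DCP2 (ENSSSCG00000014204), the catalytic decapping enzyme, had 8.67, 6.03 and 8.65 CPM in MSCs and 9.88, 18.4 and 22.1 in EVs. All EV libraries were again above all MSC libraries, by a small margin in replicate 1. The log2 change was 1.11 (SE 0.37, adjusted p = 0.259, edgeR), and it lost the call without MSC replicate 2 (0.95), without EV replicate 3 (0.86) and without EV replicate 2 (1.05, unadjusted p = 0.0533, edgeR). The other genes with every EV library higher were CNOT1 (log2 change 0.60), CNOT6 (0.87), CNOT8 (0.37), PAN3 (0.73) and LSM14A (0.54), while CNOT11 (-0.45) and EDC3 (-0.33) had every EV library lower. These 7 did not reach 2-fold, except that CNOT6 passed the fold and p limits in the fit with a block for the pig (log2 change 1.01, unadjusted p = 0.0196, adjusted p = 0.183, edgeR). With the length trend removed, the log2 change was 0.15 for CNOT1, 0.62 for CNOT6, 0.32 for CNOT8, 0.49 for PAN3 and 0.61 for LSM14A. It was -0.45 for CNOT11 and -0.44 for EDC3.

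AJUBA (ENSSSCG00000029201), a LIM-domain protein known to bind Argonautes, was the 1 pathway gene lower in EVs and had the largest change on the list. It had 23.2, 22.4 and 24.6 CPM in MSCs and 7.51, 3.20 and 3.24 in EVs. The groups were far apart, and the MSC libraries differed little among themselves. In the fit the log2 change was -2.33 (SE 0.41, unadjusted p = 0.000521, adjusted p = 0.206, edgeR), and -2.43 with a block for the pig, where it passed the adjusted test (adjusted p = 0.0305, edgeR). AJUBA was also called by DESeq2 (adjusted p = 2.6e-05). AJUBA is also known for its part in cell adhesion and Hippo signalling. The other 10 RISC-associated genes tested (log2 changes of -0.45 to 0.61) were not called. The cause of the AJUBA change was not tested.

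In the remaining groups no gene passed the rule. The cropping partners (7 tested) had a median log2 change of -0.11, with SRSF3, a splicing factor that aids hairpin recognition, at 190.0 against 172 CPM (-0.15, SE 0.33) and SRRT (ARS2), of the nuclear cap-binding machinery, at 183 against 170.0 (-0.11, SE 0.31). XPO1, the general protein exporter, had a log2 change of -0.05 (SE 0.48). Among the dicing and precursor-control genes, TARBP2, the DICER1 partner, was at 55.5 against 35.8 CPM (-0.63, SE 0.27, unadjusted p = 0.0463, adjusted p = 0.305, edgeR), and TUT4, which adds uridines to precursors, at 20.7 against 33.5 (0.69, SE 0.28, unadjusted p = 0.0387, adjusted p = 0.291, edgeR). For both the groups did not overlap, yet the change stayed under 2-fold.

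The chaperones that load Argonautes (7 tested) had a median of -0.30. HSP90AA1 was at 222 against 203 CPM (-0.13, SE 0.21) and the co-chaperone STIP1 at 253 against 159 (-0.67, SE 0.25, adjusted p = 0.277, edgeR). Of these 7, STIP1 alone had every EV library below every MSC library. The small-RNA turnover genes (4 tested) had a median of -0.01, with the nuclear exonuclease XRN2 at 0.05 (SE 0.21) and the deadenylase PARN at -0.13 (SE 0.28). PIWIL3, the single tested member of the germline PIWI clade, had 190 reads in all and a log2 change of 0.44 (SE 0.42).

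**Figure D4:**
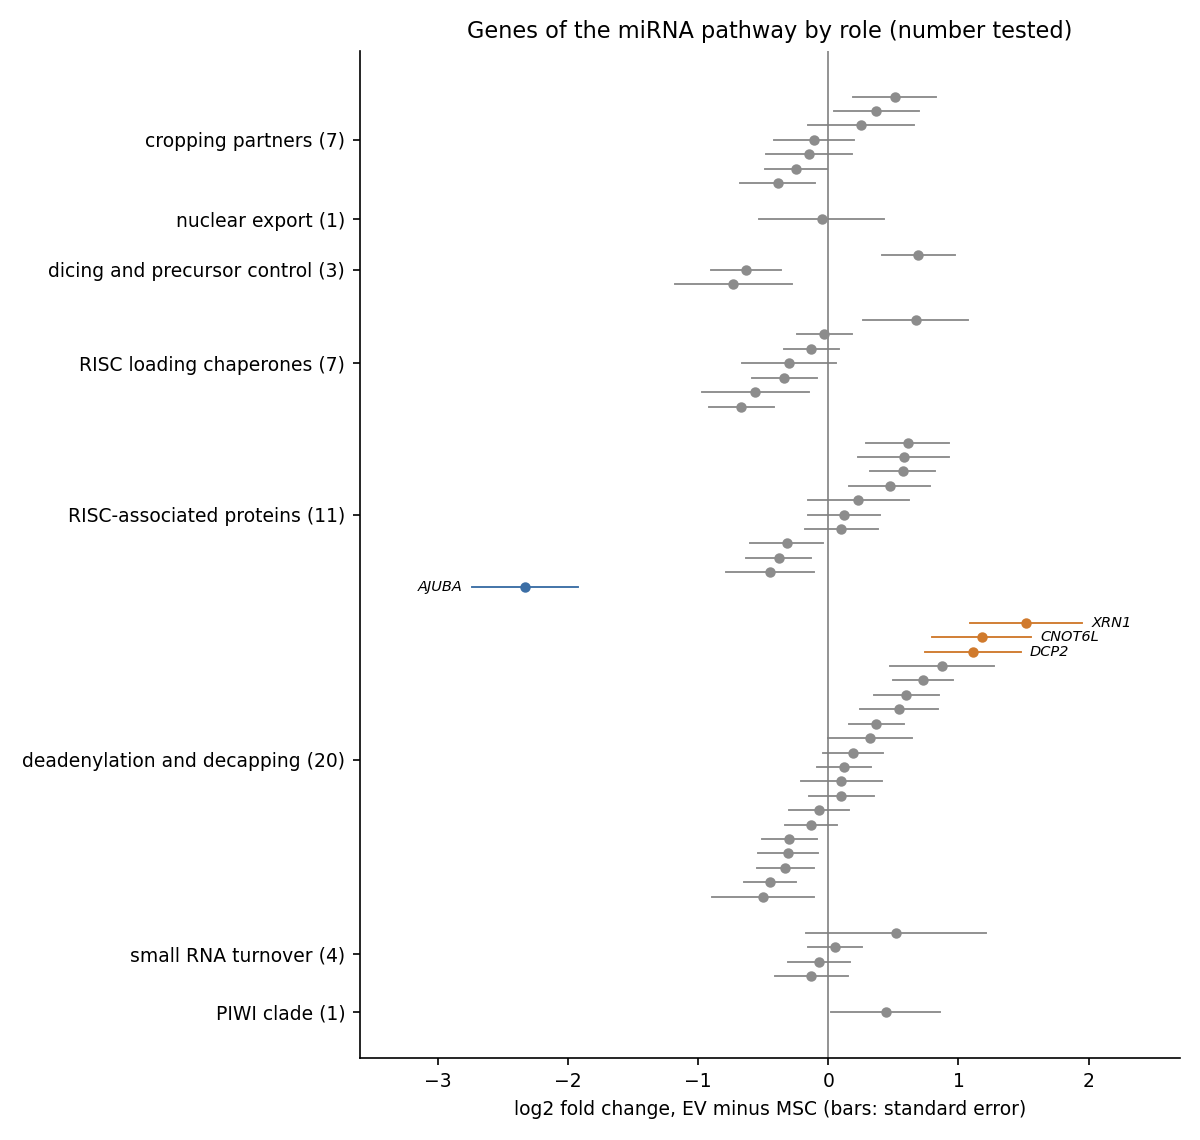
Log2 fold change, EV minus MSC, of the 54 tested pathway genes, grouped by role with the number tested; bars are standard errors (edgeR, n = 3 per group). Orange genes were over 2-fold higher and the blue gene over 2-fold lower in EVs at an unadjusted p under 0.05; all 3 orange genes are in the deadenylation and decapping group.

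The small-RNA libraries gave a second view of the DGCR8 locus. The entry MIR1306 (chromosome 14, 55110958 to 55111037, plus strand, 80 bases) lies inside the DGCR8 entry, 595 bases from its start, and DROSHA and DGCR8 are known to crop this hairpin out of the DGCR8 mRNA itself. The mRNA table had 0 reads on MIR1306. In the small-RNA table, miR-1306-5p had 1972, 1537 and 322 counts in MSC replicates 1 to 3 and 0 in each EV library, and miR-1306-3p had 1165, 737 and 204 against 0. Both arms were thus found in every MSC library and in no EV library.

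On library totals, EV depth limits that contrast to 1 library. A count of 0 allows up to 3 counts, which is 4.57 CPM of miRNA counts in EV replicate 1 but 154 and 163 in EV replicates 2 and 3, above the MSC levels of 34.1 to 128 for the 5p arm and 21.6 to 75.7 for the 3p arm. At the MSC levels, EV replicate 1 would have held 22.4 to 84.1 counts of the 5p arm and 14.2 to 49.7 of the 3p arm. In EV replicate 1 the level was at least 7.46-fold (5p) and at least 4.72-fold (3p) lower than in the lowest MSC library, with the floor of 3 counts taken per library, and in the other EV libraries a lower level was not detectable. These limits rest on library totals, without the TMM factors of the fit, and cover counting error only. With 3 against 3 libraries, adjusted p was 0.0813 for both arms (unadjusted p = 0.00676 and 0.00718, edgeR), and the unadjusted p was 0.105 and 0.127 in the fit with a block for the pig. With DESeq2 the adjusted p was 0.0159 for the 5p arm and 0.0767 for the 3p arm, and without EV replicate 3 it was 0.0131 and 0.0141 (edgeR). The adjusted p of both arms ranged from 0.0131 to 0.634 over all alternatives. By the fold and p limits 24.1% of the 220 miRNAs tested were lower in EVs, both arms among them, and the median log2 change of all miRNAs was -1.

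The miRNAs known to repress DICER1 mRNA had counts in both fractions, few of them in EVs for miR-107, and the main fit called none of them. With SEs of up to 1.86 and shallow EV replicates 2 and 3, this does not show equal levels. The 3 chosen were let-7a, miR-103 and miR-107, each taken from its most-counted precursor, so that counts on other precursors are not included. Their CPM are per library total. The fit also scaled the libraries by TMM factors, which were 0.3061 for MSC replicate 3 and 3.239 for EV replicate 3. The places of libraries by CPM therefore need not hold on the scale of the fit. Let-7a had 36200, 29400 and 4370 CPM in MSCs and 22100, 16100 and 18000 in EVs. By library totals the EVs were inside the MSC range, which MSC replicate 3 widened (TMM-scaled log2 change -0.45, SE 0.79, adjusted p = 0.769, edgeR). MiR-103 had 29471.5, 36292.33 and 5897.33 counts in MSCs and 372.83, 0 and 185.5 in EVs, and the EV libraries ranged from 0 to 10100 CPM, on both sides of the MSC libraries (log2 change -0.47, SE 1.47, adjusted p = 0.885, edgeR). MiR-107 had 6271.5, 6087.83 and 492.33 counts in MSCs (at least 52.1 CPM) and 0.33, 1 and 19 counts in EVs (0.502, 51.4 and 1030 CPM). By library totals, EV replicate 1 would have held 34.2 to 272 counts at the MSC levels, so it lay below every MSC library. EV replicate 3 lay above the MSC libraries on these CPM, and EV replicate 2 was too shallow to place. The fit gave no call for miR-107, and a log2 change of -1.04 (SE 1.86, adjusted p = 0.769, edgeR).

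**Figure D5:**
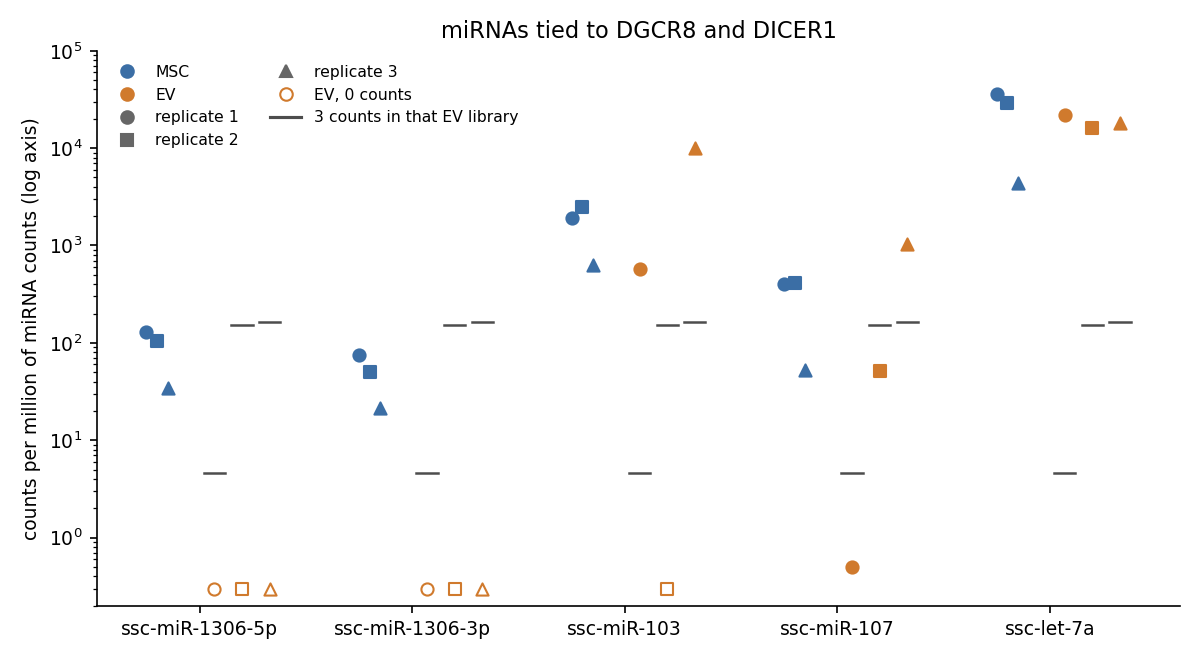
CPM of miRNA counts (log axis, per library total without TMM scaling) of the miRNAs tied to DGCR8 and DICER1 in each small-RNA library; blue points are MSCs, orange points EVs and the marker shape gives the replicate. Open symbols are EV libraries with 0 counts, drawn at the foot of the axis, and short bars mark the level of 3 counts in that EV library, which for EV replicates 2 and 3 lies above the MSC levels of both miR-1306 arms.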

How the data were processed

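Total RNA of MSCs and EVs was sequenced as mRNA (TruSeq, HiSeq) and small RNA libraries. For mRNA, the paper names TopHat for alignment and featureCounts for the counts per gene entry, and the build was susScr3. The sample records also list HTSeq, and whether it gave these counts is not certain. The options for strand and for overlapping entries are not given in the sources used here. The deposited table holds raw read counts and the authors' RPKM. For small RNA, the deposited values are estimated counts per mature miRNA (CAP-miRSeq), shared in fractions between precursors; the precursor entry with the most counts stood for each mature miRNA, and values were rounded for testing. The table of normalized miRNA values was not used. From the mRNA counts, 3 entries shifted by a space in the gene name were left out, and 11804 of 25322 Ensembl identifiers matched a symbol.

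Entries passing edgeR's filterByExpr were tested on counts with edgeR 4.0.16 (TMM, quasi-likelihood, group as the only term, R 4.3.3), with Benjamini-Hochberg adjustment over all 12392 entries or 220 miRNAs. Calls needed over 2-fold with p under 0.05, the limits of the study, whose own p came from another test. Shares were compared by exact permutation (scipy 1.17.1). Intervals are at 95%. Alternatives were DESeq2 1.42.0, other size factors, no filter, limma 3.58.1 on log2(RPKM + 1) or log2(RPKM + 0.1), removal of a gene length trend, the pig as replicate block, and leaving out each library. Same-pig mRNA libraries deviated together (r = 0.238, 0.377 and 0.401, against -0.367 to -0.033 for different pigs), the pairing being that of the labels; in small RNA r was -0.225, -0.017 and -0.128. Fits were run on simulated independent counts with changes well over 2-fold and no pig effect, which does not cover smaller changes or the spread between pigs. The genes, gene lists and linked miRNAs were chosen with earlier results of these data known. Named pathway genes were those called in their group, otherwise the most-read pair, and others named beside them were chosen after their values were seen. Further readings of the Argonaute entries by position, and of levels by the extra length of an entry, were chosen after seeing the data.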

Additional observations from a re-analysis of the deposited data

How the results depend on the processing

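The members were called 0 times in each direction under every alternative run (edgeR, DESeq2 and limma). AGO2 and DICER1 kept a positive log2 change throughout. The change of DROSHA was -0.06 with the gene length trend removed, with or without the replicate block, and leaving out 1 library moved it from -0.10 to 0.30. The same range was -0.18 to 0.03 for XPO5 and -0.08 to 0.19 for TNRC6B. The EV minus MSC difference in the AGO2 share of Argonaute RPKM was 1.66 percentage points with the entries read by position, and -4.32 to 5.62 when 1 library was left out.

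Among pathway genes, DESeq2 called 1 higher (XRN1) and 1 lower (AJUBA) after adjustment. The replicate block called 1 lower (AJUBA), also with the length trend removed. Limma on log2(RPKM + 1) called 0 higher by the unadjusted rule, since that pseudocount shrinks the folds of low genes. Leaving out 1 library gave 1 to 4 higher, with 1 left without MSC replicate 2 or without EV replicate 3. The block changed no other adjusted call among the members and pathway genes, and by the unadjusted rule it gave 4 higher, CNOT6 being added, and 1 lower.

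Over the whole table, adjusted calls (higher and lower) were 0 and 0 with edgeR, where 1978 entries had an unadjusted p under 0.05, but 61 and 75 with the replicate block, 253 and 186 with DESeq2, and 52 and 98 with the block and the length trend removed. Limma on log2(RPKM + 1) gave 216 higher and 187 lower by the unadjusted rule, against 688 and 442, the length trend with the block gave 680 lower, and leaving out EV replicate 2 gave 270 lower.

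For miRNAs, the change of miR-103 was 0.33 with DESeq2 and with its size factors, 1.22 with library totals alone, and -2.43 to 0.21 when 1 library was left out. That of miR-107 was 0.40 with library totals alone, -2.78 with the replicate block and -6.39 to -0.26 when 1 library was left out; without EV replicate 3 it was called (-6.39, unadjusted p = 0.0401, adjusted p = 0.0724, edgeR). The cause of these shifts was not tested. Few or 0 reads, beside overlapping entries, left DGCR8, AGO1, AGO3 and AGO4 untested, and depth limits EV miRNA libraries 2 and 3 to abundant miRNAs.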
